A study of Mus musculus with 18 samples.

Results

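Hearts of Kcp knockout mice (KO) and wild-type mice (WT) were compared after surgery that narrows the aortic arch (transverse aortic constriction, TAC), so that the left ventricle must pump against a higher pressure. The comparison used the 5 KO TAC and the 5 WT TAC libraries, 10 of the 18 in the series, chosen by their labelled genotype and surgery, and every gene was described. The other libraries were sham operated, 4 from WT and 4 from KO mice, of which 4 and 3 serve here as controls for the genotype difference. All mice are labelled C57, and the tissue is heart. The design of the knockout allele, the age and sex of the mice, the part of the heart taken and the time from surgery to collection are not stated in the labels or the design text. Nor do the labels tie the libraries to separate mice, and p-values therefore measure the spread between these samples, which may be technical.

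The product of Kcp, kielin/chordin-like protein, is secreted and built of cysteine-rich repeats. It is known to strengthen binding of bone morphogenetic proteins (BMPs) to their receptor and to weaken signalling by TGF-beta. In the pressure-loaded heart TGF-beta is known for driving fibroblasts to make collagen and elastic matrix, while overloaded cardiomyocytes turn on fetal genes such as Nppa and lower genes of fat oxidation. Heat shock proteins are chaperones that fold client proteins, and their genes are switched on by the transcription factor HSF1. The study asked what loss of Kcp does to this remodelling, with attention to p53, p21 and cyclin B1.

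Expression is given in FPKM, sequenced fragments corrected for the length of the transcript and the size of the library, so that levels can be compared between genes per length. Sequencing depth is unknown, and the FPKM of a library summed to between 390453 and 424875, with 11027 to 11376 genes at 1 FPKM or more. A difference is KO TAC minus WT TAC on the log2(FPKM + 1) scale, where a log2 of 1 is a doubling, with its standard error (SE). It was called when the limma p-value, adjusted by Benjamini-Hochberg over all 11602 genes tested, was under 0.05. A gene was tested when it reached 1 FPKM in at least 3 of the 10 libraries. The libraries had the make-up of heart muscle, with Myh6 between 3801 and 5215 FPKM and Tnni3 between 2625 and 3628. On the first principal component (37.8% of the variance) the WT libraries lay between -16 and -9.1 and the KO libraries between 9.5 and 21.6, except KO TAC replicate 2 at -1.5. The name of the KO TAC replicate 4 library joins 2 IDs, neither of which is the name of another sample. In 19 genes, WT TAC replicate 5 sat with the KO libraries and apart from WT TAC replicates 1 to 4 by more than 0.5 on the log2 scale. Results are given below with these libraries in, and with the effect of leaving them out.

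Kcp itself (chromosome 6, 29473162 to 29508003 in mm10) had fewer transcripts in the KO libraries and was detected in all of them. Its level was 0.985, 1.04, 1.48, 1.07 and 1.04 FPKM in WT TAC replicates 1 to 5 and 0.952, 0.935, 0.791, 0.637 and 0.494 in KO TAC replicates 1 to 5. Every KO value lay below every WT value, although KO replicates 1 and 2 were close to the lowest WT library. The log2 difference was -0.27 ± 0.10 (SE). An exact 2-sided permutation test gave p = 0.0079, the smallest that 5 against 5 libraries can give, and 0.0093 after adjustment over the 7 genes tested this way. The fit across all genes did not call Kcp (limma adjusted p = 0.119). In sham hearts, where it was too low for the filter, Kcp was at 0.794 to 1.43 FPKM in WT and 0.656 to 0.673 in the 3 KO libraries used (0.624 in KO sham replicate 2, which is left out below because its library name joins those of KO sham replicates 3 and 4), and neither the allele nor the part of the transcript that these fragments cover is known here. Among 26 tested genes that start within 2 Mb of Kcp, 2 were called, Arf5 (0.26) and Ccdc136 (0.51), beside 7.02% over all genes. A count so near that share is not read as a result about these neighbours. The median log2 difference of the 26 genes was 0.04.

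Of the 11602 genes tested, 814 were called (7.02%), 477 of them higher in KO TAC (4.11%) and 337 lower (2.90%). A further count, which uses no model, is of genes whose KO and WT values did not overlap: 455 had every KO library above every WT library (3.92%) and 336 had every KO library below (2.90%). At an unadjusted p under 0.05 there were 2847 genes. The median log2 difference of all genes was 0.02, and 58.6% of the calls were higher in KO. After median-ratio scaling of the libraries 379 genes were higher and 482 lower, so that 44% of the calls were higher. The number called moved with single libraries. It was 249 without KO TAC replicate 1, 330 without replicate 3, 330 without replicate 4 and 1385 without replicate 2. Without WT TAC replicates 2, 3, 4 and 5 it was 425, 520, 328 and 456. The counts of list members below moved with the same libraries. Without both WT TAC replicate 5 and KO TAC replicate 2, 983 genes were called. Of the called genes named in the text, 17 were not called then: Col1a1, Col3a1, Emilin1, Ctsk, Ctss, Myh6, Myl1, Tcap, Dnajb1, Dnajb5, Canx, Xbp1, Mcm6, Tpx2, Cidea, Sox17 and Oasl2. In the text, a gene that was called in every fit that left out a single library is said to have held in 10 of 10 fits.

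**Figure D1:**
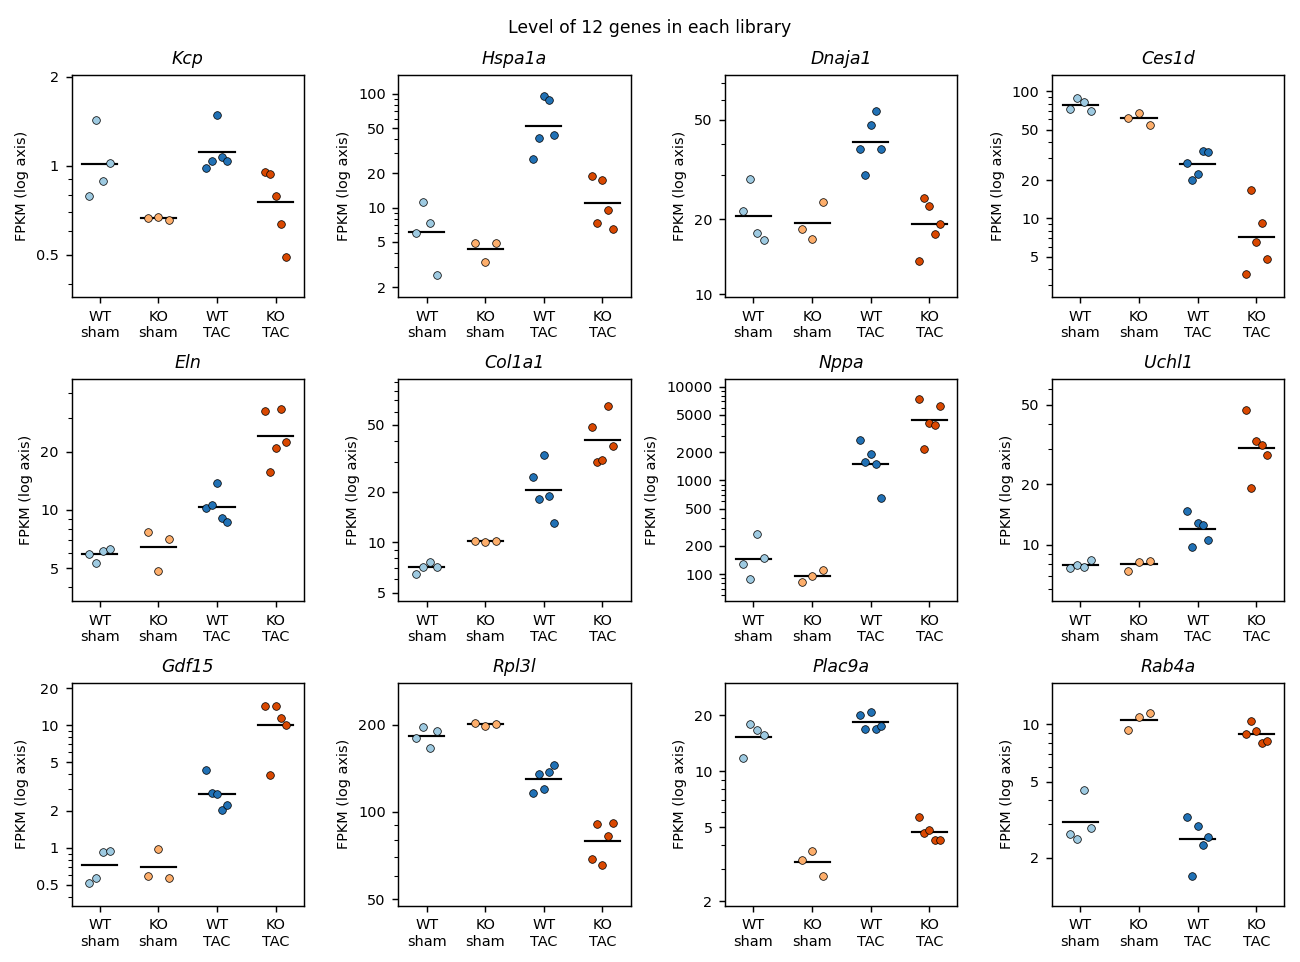
FPKM (log axis) of 12 genes in each library of the 4 groups, with a line at the back-transformed mean of log2(FPKM + 1); KO sham replicate 2 is not drawn. Hspa1a, Dnaja1 and Ces1d were lower in all KO TAC libraries than in any WT TAC library, Eln and Uchl1 were higher, and Plac9a and Rab4a differed by genotype after both operations.

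Heat shock genes were among the largest falls, with Hspa1b and Hspa1a at the head. Of 32 listed chaperone genes, all tested, 14 were lower in KO TAC and 0 higher, beside 2.90% lower and 4.11% higher over all genes, and their median log2 difference was -0.27 beside 0.02. Hspa1a, the stress-inducible HSP70, stood at 27.0, 40.8, 94.8, 88.1 and 43.1 FPKM in WT TAC replicates 1 to 5 and at 19.0, 7.36, 17.3, 9.59 and 6.41 in KO TAC replicates 1 to 5. The groups did not overlap, and WT replicates 3 and 4 were the highest. The log2 difference was -2.17 ± 0.36 (SE; limma adjusted p = 0.0068), a 4.49-fold lower level, and it held in 10 of 10 fits. Hspa1b, its near-identical copy beside it on chromosome 17, differed by -2.34 ± 0.38. Reads of the pair may have been split between them, so their separate values are uncertain.

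Other chaperones of the same cycle fell with them. Hsph1, a nucleotide exchange factor that works with HSP70, was at 29.2, 45.5, 52.4, 48.9 and 32.5 FPKM in WT TAC and at 10.6, 20.3, 16.4, 17.9 and 22.8 in KO TAC (log2 -1.20 ± 0.20 SE, limma adjusted p = 0.00653). Dnaja1, an HSP40 co-chaperone, was at 38.03, 30.0, 47.5, 54.4 and 38.2 in WT TAC and at 13.6, 24.4, 22.5, 17.4 and 19.2 in KO TAC (log2 -1.06 ± 0.17 SE, limma adjusted p = 0.00522). No KO value reached the WT range in either gene. The HSP90 genes Hsp90aa1 (-0.57) and Hsp90ab1 (-0.30) fell, as did the HSP90 co-chaperones Fkbp4 (-0.66), Chordc1 (-0.68), Stip1 (-0.48), Cacybp (-0.40), Ahsa1 (-0.39) and Ptges3 (-0.26). The HSP40 genes Dnajb1 (-0.90) and Dnajb5 (-0.32) completed the 14. Of the small heat shock genes, Hspb1 and Cryab were named after their values were seen and were not called, with log2 differences of -0.13 for Hspb1 and -0.10 for Cryab.

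In sham hearts 0 of the 32 heat shock genes were called between the genotypes, beside 1.42% of all genes tested there. With so low a share, a count of 0 is not read as a result about the list. Their median difference in sham was 0.04. Hspa1a there was at 2.53 to 11.1 FPKM in WT and 3.33 to 4.88 in KO, below all WT TAC libraries. The test of the difference between the TAC and sham contrasts (the interaction) called 3 of the 32 genes, beside 0.930% over all genes. They were Hspd1, Fkbp4 (-0.85 ± 0.16 SE, limma adjusted p = 0.0229) and Stip1 (-0.70 ± 0.16 SE, limma adjusted p = 0.0423). Hspa1a was not called (-1.76 ± 0.63 SE, limma adjusted p = 0.152). The count of 14 was 6 without KO TAC replicate 1, 7 without replicate 3 and 8 without replicate 4. Without WT TAC replicates 2, 3 and 4 it was 9, 8 and 6. It was 12 without both WT TAC replicate 5 and KO TAC replicate 2. With a term for the library set described above, which compares KO with WT TAC replicate 5 alone, the count was 0, and the log2 difference of Hspa1a was -1.89.

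HSF1 binds repeats of GAA in alternate orientation, known as heat shock elements. The motif GAANNTTC, which reads the same on both strands, was searched in windows from 250 bases before to 50 bases after each listed start of a gene in the RefSeq annotation of GRCm38.p6 (mm10). It was found for 14 of the 26 heat shock genes that have a window (53.8%), beside 9.04% of all 27025 genes with a window and 6.99% of the tested genes. Among the called members 6 of 12 had it, and among those not called 8 of 14. The 250 bases before the start are printed for 3 members that fell and for Hspb1, which was not called, because they show the motif (in capitals) on both sides of the call, 5′ to 3′ on the strand of the gene. Hspa1a is on the minus strand at chr17:34972157-34972406, Dnaja1 on the plus strand at chr4:40722218-40722467, Fkbp4 on the minus strand at chr6:128438657-128438906 and Hspb1 on the plus strand at chr5:135887669-135887918. The motif begins at -104 in Hspa1a, -124 in Dnaja1, -151 in Fkbp4, and at -117 and -97 in Hspb1, counted from the gene start. A match of these letters describes the sequence only.
Hspa1a: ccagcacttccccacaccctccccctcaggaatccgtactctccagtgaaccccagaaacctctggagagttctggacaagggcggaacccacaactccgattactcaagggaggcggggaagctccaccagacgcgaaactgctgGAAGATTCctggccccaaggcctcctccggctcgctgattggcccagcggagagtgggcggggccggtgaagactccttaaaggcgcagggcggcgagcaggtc
Dnaja1: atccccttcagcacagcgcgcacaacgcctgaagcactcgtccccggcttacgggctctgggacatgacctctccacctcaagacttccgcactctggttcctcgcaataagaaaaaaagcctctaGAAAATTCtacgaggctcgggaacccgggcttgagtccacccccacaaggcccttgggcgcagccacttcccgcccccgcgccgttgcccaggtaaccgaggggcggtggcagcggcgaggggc
Fkbp4: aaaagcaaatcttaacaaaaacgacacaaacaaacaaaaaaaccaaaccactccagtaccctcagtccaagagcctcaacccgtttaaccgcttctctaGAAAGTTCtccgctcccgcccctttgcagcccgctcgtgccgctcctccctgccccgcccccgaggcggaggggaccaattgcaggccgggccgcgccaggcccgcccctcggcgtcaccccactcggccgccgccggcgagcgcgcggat
Hspb1: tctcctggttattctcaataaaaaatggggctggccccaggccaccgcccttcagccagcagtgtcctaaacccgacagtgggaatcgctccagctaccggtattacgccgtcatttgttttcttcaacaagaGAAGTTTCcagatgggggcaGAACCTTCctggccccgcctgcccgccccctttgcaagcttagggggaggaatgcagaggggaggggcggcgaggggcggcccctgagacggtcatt

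Several chaperones of the endoplasmic reticulum were lower by smaller amounts. Of 25 genes of the unfolded protein response 5 fell and 0 rose, beside 2.90% lower and 4.11% higher over all genes. Their median was -0.15. Hspa5, the HSP70 of the endoplasmic reticulum, went from 147.9 ± 9.17 to 123 ± 6.05 FPKM (mean ± SD, n = 5 in each group, log2 -0.26). Manf, a secreted stress protein, Creld2, the lectin chaperone Canx and the transcription factor gene Xbp1 fell by 0.31, 0.34, 0.21 and 0.20 on the log2 scale. Creld2 was not called after median-ratio scaling (limma adjusted p = 0.0528). The count was 0 without KO TAC replicate 1 or 4 or WT TAC replicate 2 or 4, 1 without WT TAC replicate 3, 2 without KO TAC replicate 3 or 5 and 3 without WT TAC replicate 5. Genes of the integrated stress response did not share that direction, with 3 of 19 higher and 0 lower (4.11% and 2.90% over all genes). Gdf15, a secreted stress cytokine, was at 4.32, 2.81, 2.73, 2.05 and 2.25 FPKM in WT TAC and at 14.4, 3.95, 14.3, 11.4 and 10.03 in KO TAC. KO TAC replicate 2 lay inside the WT range and the other KO libraries above it (log2 1.55 ± 0.27 SE, limma adjusted p = 0.00907, held in 10 of 10 fits). Psat1, an enzyme of serine synthesis, and Ddit4, an inhibitor of mTORC1, rose by log2 0.41 and 0.67.

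In each of 6 lists of matrix genes more members rose than fell, with the most in the elastic fibre. Of 20 tested genes of the elastic fibre (22 listed) 8 rose and 1 fell, beside 4.11% higher and 2.90% lower over all genes. Their median log2 difference was 0.51. Eln, which encodes elastin, the rubber-like core of the fibre, was at 10.3, 10.6, 13.7, 9.05 and 8.63 FPKM in WT TAC and at 32.3, 15.6, 20.8, 33.3 and 22.3 in KO TAC. Its groups did not overlap, and the nearest KO library was replicate 2. The log2 difference was 1.14 ± 0.18 (SE, limma adjusted p = 0.00606), a 2.20-fold higher level, held in 10 of 10 fits. In sham the difference was 0.10 (limma adjusted p = 0.754), and the interaction did not pass (1.04 ± 0.28 SE, limma adjusted p = 0.0719).

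Parts of the scaffold and the enzymes of the elastic fibre went with Eln. Fbn1, the fibrillin of its microfibrils, rose by 0.72, Mfap4, a microfibril-associated protein, by 1.12, and Emilin1, found where elastin meets microfibrils, by 0.59. Lox and Loxl2, which cross-link elastin and collagen, rose by 1.27 and 0.53. Lox was at 2.09, 1.87, 1.87, 1.80 and 0.897 FPKM in WT TAC and at 8.78, 1.67, 4.80, 11.97 and 4.64 in KO TAC, so that KO TAC replicate 2 was inside the WT range. Efemp2, which recruits Lox to elastin, and Ltbp3, which stores latent TGF-beta, rose by 0.40 and 0.50 with no overlap of the groups. Efemp1, a fibulin, fell by 0.90 on the log2 scale, from 1.95 ± 0.380 to 0.589 ± 0.265 FPKM (mean ± SD, n = 5), and was tested through the WT libraries alone. Loxl2 was not called after median-ratio scaling (limma adjusted p = 0.0586). The count of 8 was 2 without KO TAC replicates 1, 3 or 4 and 2 without WT TAC replicates 2, 4 or 5. It was 5 without KO TAC replicate 5 and 13 without KO TAC replicate 2.

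Collagen genes were higher with more overlap between the groups. Of 7 fibrillar collagens tested (11 listed) 3 rose and 0 fell, beside 4.11% higher and 2.90% lower over all genes. Their median was 0.71, and no group pair was free of overlap. Col1a1, the main chain of type I collagen, was at 24.4, 18.1, 33.3, 18.8 and 13.1 FPKM in WT TAC and at 48.9, 30.2, 31.0, 64.7 and 37.5 in KO TAC. WT TAC replicate 3 lay above KO replicates 2 and 3, and the other WT libraries lay below all KO libraries. The log2 difference was 0.95 ± 0.24 (SE, limma adjusted p = 0.0352), with an exact permutation p = 0.024, also 0.024 after adjustment over the 7 genes tested so. The call held in 3 of 10 fits and was lost without both WT TAC replicate 5 and KO TAC replicate 2 (0.90, limma adjusted p = 0.0541). Col3a1 and Col5a2 rose by 0.94 and 0.87. Col1a1 and Col3a1 were also higher in KO sham (0.46 and 0.53, limma adjusted p = 0.0112 and 0.0397), and their interaction did not pass (limma adjusted p = 0.465 and 0.574).

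Of 13 other collagens tested (29 listed) 4 rose and 0 fell, beside 4.11% higher and 2.90% lower over all genes. The basement membrane collagens Col4a1 (0.41 ± 0.07 SE, limma adjusted p = 0.00754, held in 10 of 10 fits) and Col4a2 (0.33) changed little in size, with all KO libraries above all WT libraries. Col4a1 was at 101, 103.5, 120.1, 92.0 and 99.2 FPKM in WT TAC and at 131, 130.4, 141, 147 and 132 in KO TAC. Col8a1, a short-chain collagen, and Col14a1, which decorates fibrils, rose by 0.94 and 0.84. The fibrillar count was 0 without WT TAC replicate 2, 4 or 5 or KO TAC replicate 1, 3, 4 or 5, and 5 without KO TAC replicate 2. That of the other collagens was 1 without WT TAC replicate 4 or KO TAC replicate 3 or 4, and 2 without WT TAC replicate 2 or 5 or KO TAC replicate 1. It was 6 without both WT TAC replicate 5 and KO TAC replicate 2, where the fibrillar count was 1.

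Collagen-modifying and matrix-binding genes gave further calls. Of 21 collagen enzymes 4 rose and 0 fell, beside 4.11% higher and 2.90% lower over all genes. They were the prolyl hydroxylase P3h2 (0.58), the lysyl hydroxylase Plod2 (0.35), Pcolce (0.45), which helps to cleave procollagen, and P4hb (0.31). P4hb encodes the beta subunit of a prolyl hydroxylase, which is also a protein disulfide isomerase of the endoplasmic reticulum. P3h2 and P4hb also passed the interaction test (0.58 and 0.46, limma adjusted p = 0.0432 and 0.0339). The count was 1 without WT TAC replicate 2, 4 or 5 or KO TAC replicate 1, 3 or 4, and 7 without KO TAC replicate 2; Plod2 and Pcolce were not called after median-ratio scaling (limma adjusted p = 0.0543 and 0.0617). Of 28 matricellular proteins and proteoglycans tested 3 rose and 0 fell, with a median of 0.39. Beside 4.11% higher and 2.90% lower over all genes, so small a count is not read as a change of the list. It was 2 at the lowest with a single library left out. Sparc, a collagen-binding protein, was at 250.1, 209.7, 294.5, 234 and 231 FPKM in WT TAC and at 404, 309.8, 383, 398 and 334 in KO TAC, with no overlap (0.58 ± 0.10 SE, limma adjusted p = 0.0066). Bgn, the proteoglycan biglycan, rose by 0.91 and Ccn5 by 1.04. Postn, which encodes periostin of activated fibroblasts, had 67.9 ± 33.5 FPKM in WT TAC and 168 ± 71.8 in KO TAC (mean ± SD, n = 5) and was not called (1.34 ± 0.40 SE, limma adjusted p = 0.0626). Ccn2, a TGF-beta target, was not called either (1.04 ± 0.32 SE, limma adjusted p = 0.0664). Both were called without KO TAC replicate 2 (limma adjusted p = 0.0174 for Postn and 0.00106 for Ccn2), and also without WT TAC replicate 5 and KO TAC replicate 2 (limma adjusted p = 0.0164 and 0.00381). In the 4-group model over 17 libraries they passed at a limma adjusted p of 0.0383 and 0.0409. Without KO TAC replicate 2, 11 of the 28 were called higher.

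Of 20 matrix proteases and inhibitors tested, 1 of them through KO libraries alone, 6 rose and 0 fell (4.11% and 2.90% over all genes). They were Timp1 (1.19), an inhibitor of matrix metalloproteinases, Adamtsl2 (0.89), Mmp14 (0.71), a membrane-bound collagenase, the cathepsins Ctsk (0.59) and Ctss (0.55), and Mmp23 (0.50). In Mmp14 and Mmp23 all KO libraries were above all WT libraries. Mmp14 was at 2.73, 2.91, 4.23, 3.52 and 2.82 FPKM in WT TAC and at 7.78, 4.33, 5.55, 8.07 and 4.52 in KO TAC. The count of proteases was 0 without KO TAC replicate 1 or WT TAC replicate 5, 1 without KO TAC replicate 4 or WT TAC replicate 2, 2 without KO TAC replicate 3 or WT TAC replicate 4, and 3 without KO TAC replicate 5 or WT TAC replicate 3.

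Markers of the cells known to make matrix were counted beside these genes. Of 20 fibroblast markers tested (21 listed) 1 rose, Col14a1, and 1 fell, Gsn (-0.38), with a median of 0.28. Beside 4.11% higher and 2.90% lower over all genes, counts this small are not read as a change of the list. Without KO TAC replicate 2, alone or with WT TAC replicate 5, 4 rose. Their summed level was 677 to 1013 FPKM in WT TAC and 740.0 to 1148 in KO TAC. Smooth muscle and pericyte markers, from cells that also make elastin, had 0 of 15 called (1 higher and 1 lower without KO TAC replicate 2) and sums of 1202 to 1501 and 1350.0 to 1717. In bulk samples, fewer cells of a type and less RNA per cell cannot be told apart, and the part of cell numbers in the matrix result was not tested.

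**Figure D2:**
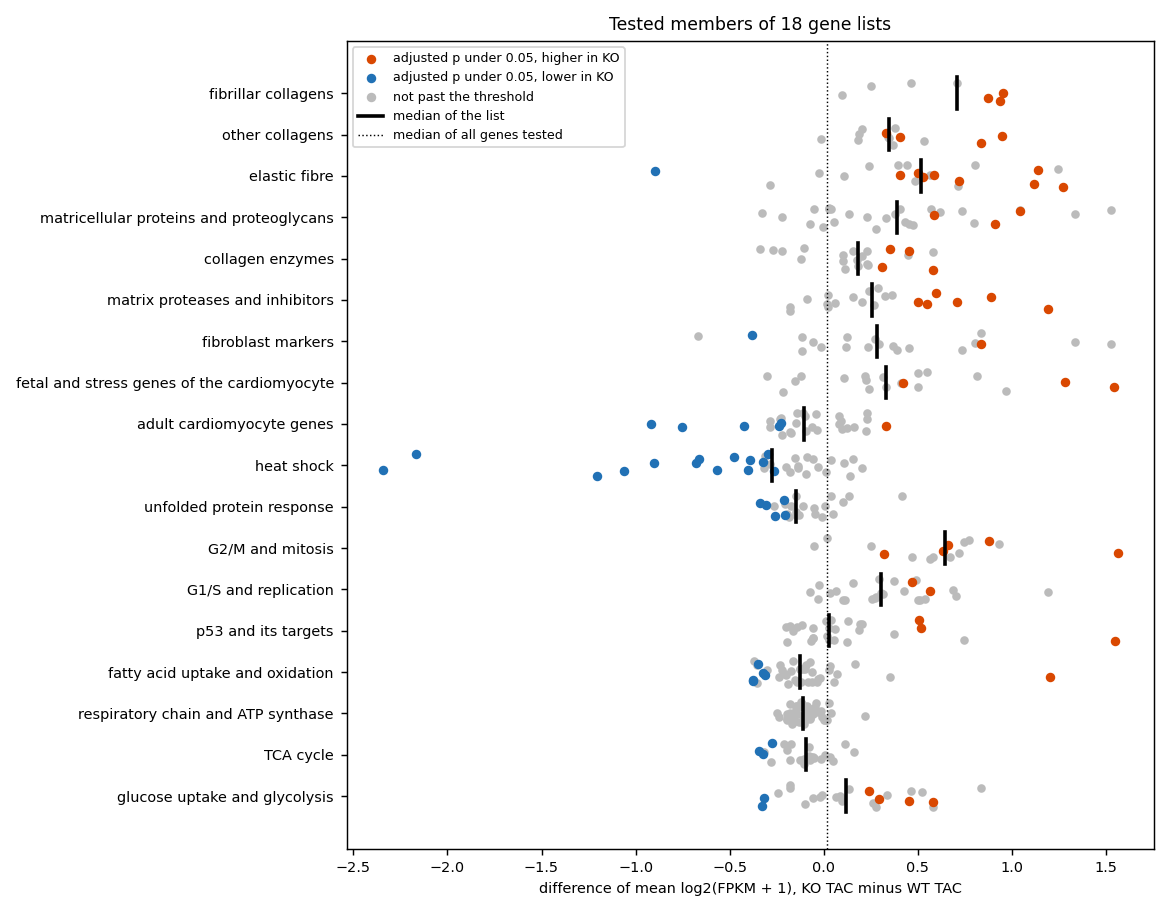
Log2 differences (KO TAC minus WT TAC, horizontal axis) of the tested members of 18 gene lists, 1 point a gene, coloured where the limma adjusted p was under 0.05; thick bars are list medians and the dotted line is the median of all genes (0.02). The matrix lists lie mostly to the right, with medians from 0.18 to 0.71, and the heat shock list reaches furthest to the left. The mitosis and G1 lists hold 3 and 2 genes that were tested through KO libraries alone.

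Signals of the BMP and TGF-beta families were called in few members. Beside 4.11% higher and 2.90% lower over all genes, their counts are too small to be read as a change of either list. Of 23 tested BMP genes (37 listed) 2 rose and 0 fell, with a median of 0.07. The ligand gene Bmp6 was at 10.2, 8.57, 7.52, 8.37 and 9.66 FPKM in WT TAC and at 12.8, 13.8, 13.3, 12.1 and 11.9 in KO TAC, with no overlap (0.49 ± 0.08 SE, limma adjusted p = 0.00519, held in 10 of 10 fits). Fstl1, a secreted BMP-binding protein, rose by 0.81. Bmp7, the BMP that Kcp is best known to assist, was too low to test, at 0.522 ± 0.160 FPKM in WT TAC and 0.330 ± 0.107 in KO TAC (mean ± SD, n = 5). Smad6, Smad7 and Id1, which BMP signalling is known to switch on, were named after their values were seen and were not called, with 0.35 for Smad6, 0.50 for Smad7 and -0.16 for Id1. Of 23 TGF-beta genes 2 rose, Ltbp3 (0.50) and the receptor gene Tgfbr1 (0.43), and 0 fell. The ligand gene Tgfb2 was not called (0.75 ± 0.24 SE, limma adjusted p = 0.0718). It was called without KO TAC replicate 2 (0.96, limma adjusted p = 0.00734), without WT TAC replicate 5 and KO TAC replicate 2 (0.85, limma adjusted p = 0.0141) and in the 4-group model over 17 libraries (limma adjusted p = 0.0347). Tgfbr1 was not called after median-ratio scaling (limma adjusted p = 0.0536). Without KO TAC replicate 2 the counts were 6 for BMP and 7 for TGF-beta genes. The TGF-beta count was 0 without WT TAC replicate 2, 3 or 5 or KO TAC replicate 1, 3 or 4, and the BMP count was 1 without WT TAC replicate 2, 4 or 5 or KO TAC replicate 1, 3 or 4.

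Few cardiomyocyte genes were called, and most of the stress genes called were higher and most of the adult genes lower. Of 19 fetal and stress genes tested (22 listed) 3 rose, Nppa, Uchl1 and Actn1, and 0 fell (4.11% and 2.90% over all genes). Nppa, which encodes atrial natriuretic peptide, was at 2669, 1560, 1901, 1510 and 645.5 FPKM in WT TAC and at 7472, 2191, 4104, 3931 and 6151 in KO TAC. The highest WT library lay above KO TAC replicate 2, and the log2 difference was 1.54 ± 0.37 (SE, limma adjusted p = 0.0292), held in 2 of 10 fits. Nppa is also a marker of atrial muscle. Of 12 listed atrial markers 6 were tested, of which Nppa and Myl1 rose and Stard10 fell. The atrial muscle genes Myl7 and Sln were at most 0.40 and 0.192 FPKM in any of the 10 libraries, and the part of atrial tissue in the result was not tested. Nppb (0.50 ± 0.27 SE, limma adjusted p = 0.268), Acta1 (-0.16 ± 0.37 SE) and Myh7 (0.55 ± 0.36 SE) were not called. The sign of Acta1 turned to 0.05 without WT TAC replicate 2 or 3 and to 0.03 without KO TAC replicate 3.

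Uchl1, a ubiquitin hydrolase that rises in strained muscle, was at 14.7, 9.78, 12.8, 12.5 and 10.5 FPKM in WT TAC and at 47.4, 19.2, 33.1, 31.4 and 27.9 in KO TAC. All KO libraries lay above all WT libraries (1.28 ± 0.18 SE, limma adjusted p = 0.00398). In sham the genotypes were level (0.01), and the interaction passed (1.27 ± 0.25 SE, limma adjusted p = 0.034). Actn1, the non-muscle alpha-actinin, rose by 0.42.

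Of 30 adult cardiomyocyte genes tested (32 listed) 5 fell and 1 rose, beside 2.90% lower and 4.11% higher over all genes. Their median was -0.10. Hrc, the histidine-rich calcium-binding protein of the sarcoplasmic reticulum, was at 259, 259.9, 270.2, 309 and 331 FPKM in WT TAC and at 209, 214.5, 227, 216 and 195 in KO TAC, with no overlap (-0.42 ± 0.07 SE, limma adjusted p = 0.0094). Kcnd2, a channel of the transient outward potassium current, fell by 0.76 on the log2 scale. Its KO TAC replicate 2 (3.37 FPKM) was within the WT range of 2.70 to 4.04, and the other KO libraries were at 1.22 to 1.53. Myh6, the adult myosin, and Tnni3, the cardiac troponin I, fell by 0.23 and 0.24. Sbk2, a kinase of striated muscle, fell by 0.92 and is 1 of the 19 genes in which WT TAC replicate 5 sat with the KO libraries. It reached 1 FPKM in WT TAC libraries alone. Tcap, a Z-disc protein, rose by 0.33. Atp2a2, the calcium pump, was not called (-0.23 ± 0.09 SE, limma adjusted p = 0.127). The 5 lower calls became 2 without WT TAC replicate 4 or KO TAC replicate 1, 3, 4 or 5, and 3 without WT TAC replicate 2 or 5. The fetal and stress count was 6 without KO TAC replicate 2.

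The p53 route, named in the title of the series, was called in 3 of its 27 tested genes, all higher. With 4.11% higher over all genes, so small a count is not read as a change of the list. Trp53, which encodes p53, was at 11.98, 10.8, 14.01, 11.6 and 11.1 FPKM in WT TAC and at 13.1, 12.2, 12.7, 11.2 and 10.8 in KO TAC, so the groups covered each other (0.01 ± 0.08 SE, limma adjusted p = 0.934). Cdkn1a, the cell-cycle inhibitor p21, was at 23.3, 59.7, 24.2, 25.5 and 28.5 in WT TAC and at 66.9, 26.1, 67.8, 59.3 and 49.2 in KO TAC. WT TAC replicate 2 was as high as the KO libraries, and KO TAC replicate 2 as low as the WT libraries. Cdkn1a was not called (0.74 ± 0.28 SE, limma adjusted p = 0.126), with a difference of 0.96 (limma adjusted p = 0.0625) without WT TAC replicate 5 and KO TAC replicate 2. It was called when KO TAC replicate 2 alone was left out (0.98, limma adjusted p = 0.0216). The members that rose were Gdf15, Phlda3 (0.52), which restrains Akt, and Trp53inp1 (0.51), which was not called after median-ratio scaling (limma adjusted p = 0.0524). The median of the list was 0.03. Its count was 1 without KO TAC replicate 1.

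A few genes of mitosis rose in KO TAC, at low levels. Of 36 listed genes of G2 and mitosis only 16 were tested, and 3 of these reached the minimum in KO libraries alone, so the count of the tested is no measure of the list. Among them 5 rose and 0 fell, beside 4.11% higher and 2.90% lower over all genes. The median of 0.64 includes the 3 genes that entered through KO libraries. Ube2c, the ubiquitin-conjugating enzyme of the anaphase-promoting complex, was at 3.23, 1.27, 3.23, 2.70 and 2.53 FPKM in WT TAC and at 14.9, 4.60, 24.4, 4.86 and 7.96 in KO TAC. All KO libraries were above all WT libraries, with KO TAC replicate 3 highest (1.56 ± 0.37 SE, limma adjusted p = 0.028, held in 4 of 10 fits). Ccnb2, a mitotic cyclin, rose by 0.88, the spindle genes Tpx2 and Nusap1 by 0.63 and 0.66, and Cenpa, the centromere histone, by 0.32. Nusap1 was not called after median-ratio scaling (limma adjusted p = 0.0509). Ccnb1, cyclin B1, was too low for the fit, at 0.391, 0.0943, 0.163, 0.220 and 0.357 FPKM in WT TAC and 2.14, 0.396, 3.45, 0.803 and 0.914 in KO TAC. Its values did not overlap, and an exact 2-sided permutation test gave p = 0.0079 (0.0093 adjusted over 7 tests). Ccnb1 was not in the plan for this test and was added to it. Any gene without overlap reaches that p, as did the 3.92% of tested genes with all KO libraries above all WT libraries. Several of the 7 genes were given as markers of this comparison, so adjustment over them corrects for little. Of 25 tested G1 and replication genes (32 listed) 2 rose, the cyclin Ccnd2 (0.56) and the helicase subunit Mcm6 (0.47), and 0 fell. Of the 25, 2 reached the minimum in KO libraries alone, so here too the tested genes do not stand for the list. The mitosis count was 0 without KO TAC replicate 1 or WT TAC replicate 2, 1 without KO TAC replicate 3 or WT TAC replicate 3, 4 or 5, 3 without KO TAC replicate 4 or WT TAC replicate 1, and 7 without KO TAC replicate 2. The G1 count was 0 without KO TAC replicate 1 or 3, 1 without WT TAC replicate 2, 3, 4 or 5, and 5 without KO TAC replicate 2 or 5.

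**Figure D3:**
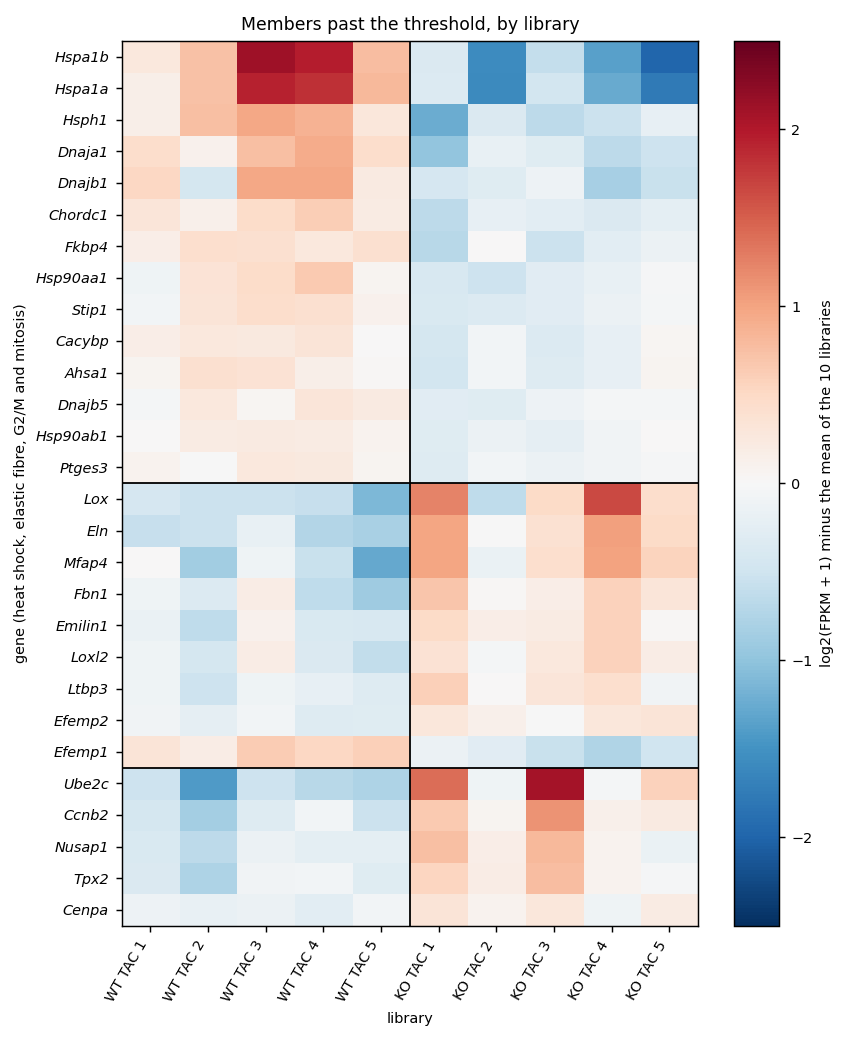
Members past the threshold of the heat shock (14), elastic fibre (9) and mitosis (5) lists in each TAC library, as log2(FPKM + 1) minus the mean of the 10 libraries of that gene. Blue cells are below and red cells above the mean; KO TAC replicate 2 is the lowest KO library in most of the rising elastic fibre rows, and KO TAC replicates 1 and 3 carry the deepest red among mitosis genes.

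Among metabolic genes the largest fall was that of Ces1d, and most other changes were under 0.5 on the log2 scale. Ces1d, a carboxylesterase that hydrolyses triglyceride, was at 27.4, 20.1, 22.5, 34.0 and 33.1 FPKM in WT TAC and at 3.66, 16.7, 6.55, 9.28 and 4.78 in KO TAC. KO TAC replicate 2 was the highest KO library and still below the lowest WT library. The log2 difference was -1.77 ± 0.30 (SE, limma adjusted p = 0.00704), a 3.40-fold lower level, held in 10 of 10 fits. Sham levels were 70.5 to 88.8 in WT and 54.7 to 67.8 in KO (-0.35, limma adjusted p = 0.115), and the interaction did not pass (-1.42 ± 0.44 SE, limma adjusted p = 0.105). Of 24 tested genes of lipid handling (35 listed) 2 fell, Ces1d and the phosphatidate phosphatase Lpin1 (-0.35), and 2 rose, Cidea (0.29) and Angptl4 (1.11), a secreted inhibitor of lipoprotein lipase. Cidea was not called after median-ratio scaling (limma adjusted p = 0.0589). Beside 4.11% higher and 2.90% lower over all genes, the lipid counts are not read as a change of the list.

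Of 39 genes of fatty acid uptake and oxidation 5 fell and 1 rose, beside 2.90% lower and 4.11% higher over all genes. Their median was -0.13. The regulators Ppara (-0.38) and Ppargc1b (-0.35) had all KO libraries below all WT libraries. Ppara was at 15.0, 16.6, 14.9, 14.8 and 17.1 FPKM in WT TAC and at 10.6, 12.8, 11.3, 11.2 and 13.6 in KO TAC. The enzymes Hadh (-0.38), Acsl1 (-0.32) and Eci1 (-0.31) fell, and Pdk4, a kinase that shuts off pyruvate dehydrogenase, rose by 1.2. Of 24 genes of the tricarboxylic acid cycle 3 fell, Suclg2 (-0.34), Pdhb (-0.33) and Idh3a (-0.28), and 6 did after median-ratio scaling or without WT TAC replicate 5 and KO TAC replicate 2. Of 47 respiratory chain genes 0 were called in either direction, while 41 had a negative difference and the median was -0.11. After median-ratio scaling 4 of them were called lower, among them Ndufs4 (-0.27, limma adjusted p = 0.0302) and Ndufs1 (-0.22, limma adjusted p = 0.0342). The count was also 4 without KO TAC replicate 2, and 3 without WT TAC replicate 5 as well. Without KO TAC replicate 2, 11 fatty acid genes and 7 cycle genes were lower. The fatty acid count was 2 without WT TAC replicate 2 or 5 or KO TAC replicate 1, 3 or 4, 3 without WT TAC replicate 1 or 4, and 8 after median-ratio scaling. Of 24 glycolysis genes 4 rose and 2 fell. Gapdh (0.58), Eno1 (0.45), Pgk1 (0.29) and Gpi1 (0.24) rose with all KO libraries above all WT libraries, and the glucose transporter gene Slc2a4 (-0.33) and Pfkfb2 (-0.32) fell. Gpi1 was not called after median-ratio scaling (limma adjusted p = 0.052), nor was Pdk4 (limma adjusted p = 0.0526). In the fit without KO TAC replicate 2, 10 glycolysis genes were higher. Gapdh was called in sham as well (0.40, limma adjusted p = 0.00277).

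Markers of other cell types gave few calls. Beside 4.11% higher and 2.90% lower over all genes, these counts are not read as changes of the lists. Of 23 macrophage and monocyte markers tested (28 listed) 1 fell and 0 rose. The one that fell was Retnla, a marker of alternatively activated macrophages, at 2.56, 1.19, 2.68, 2.60 and 1.60 FPKM in WT TAC and at 0.258, 0.219, 0.463, 0.506 and 0 in KO TAC (-1.26 ± 0.16 SE, limma adjusted p = 0.00212). All KO values were below all WT values. Retnla reached 1 FPKM in WT TAC alone, so the single call of the list entered the test through the group in which it was high. The summed level of the macrophage markers was 354 to 540.5 FPKM in WT TAC and 439.7 to 580.0 in KO TAC. Of 21 endothelial markers 2 rose, Plvap (0.98), a protein of endothelial fenestrae, and Sox17 (0.41), and their sum was 849 to 1025 in WT TAC and 906 to 1091 in KO TAC. Blood genes had 0 of 7 called, with sums of 1514 to 3731 in WT TAC and 2530.0 to 4167 in KO TAC. Of 24 lymphocyte and granulocyte markers only 2 were tested, and the T-cell marker Cd3e was at most 0.181 FPKM in any library. The lists of 25 immediate early genes and 18 clock genes had 0 calls, and at most 2 and 3 members were called in 1 direction with a single library left out. The Y-linked gene Eif2s3y was present in all 10 libraries, at 16.15 to 31.5 FPKM.

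The genotype difference in sham hearts, which shares no library with the TAC comparison, had 162 calls among 11427 genes tested (1.42%). Of these, 58 were also called after TAC, which is 35.8% of the sham calls and 7.13% of the TAC calls, and 55 had the same direction. The fit to sham used 4 WT and 3 KO libraries, without KO sham replicate 2. In the library-set term all WT sham libraries stand with WT TAC replicates 1 to 4, and all KO sham libraries with WT TAC replicate 5. Within sham, set and genotype therefore coincide, so the 58 shared calls are no independent check of genotype. Ndufb4c, for example, was at 40.7 to 49.4 FPKM in WT sham, 7.19 to 11.2 in the 4 KO sham libraries and 7.02 in WT TAC replicate 5.

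Several of the firmest TAC differences were among the 58 genes called in both settings. Plac9a, which encodes a small secreted protein, was at 20.1, 16.9, 20.7, 16.8 and 17.4 FPKM in WT TAC and at 5.69, 4.67, 4.85, 4.25 and 4.28 in KO TAC (-1.75 ± 0.08 SE, limma adjusted p = 4.42e-07), and at 11.8 to 17.9 and 2.73 to 3.73 in WT and KO sham. Its near copy Plac9b behaved alike (-1.61 ± 0.08 SE), and both lie on chromosome 14 between 25888403 and 26182351. Of the 58 genes, 12 lie on chromosome 14, where 422 genes were tested, among them Tmem254a, Tmem254b, Tmem254c and Gm9780 in the same stretch, and Entpd4 and Entpd4b further along. Copies of a gene can share reads, so values within these families are uncertain. Genes higher in KO in both settings were Rab4a, an endosomal GTPase (1.5 both after TAC and in sham), the dynein light chain genes Dynlt1b (1.37 and 1.58) and Dynlt1c (0.79 and 0.79), Wdfy1 (1.13 and 0.93) and Nnt. Scgb1c1 (-1.30 and -1.03) and Armc2 (-0.97 and -0.70) were lower in both.

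Nnt encodes the mitochondrial transhydrogenase, and a deletion in it is known to distinguish C57BL/6J from other C57BL/6 substrains. Its level was 116, 101, 92.1, 113.5 and 134 FPKM in WT TAC and 193, 196.5, 190.1, 176 and 179 in KO TAC, with no overlap (0.75 ± 0.09 SE, limma adjusted p = 0.000841). In sham the WT libraries were at 138 to 150.3 and the KO libraries at 267 to 327 (1.01, limma adjusted p = 1e-04). The interaction was not called (-0.26 ± 0.13 SE, limma adjusted p = 0.284). Nnt was detected in every library.

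The 19 genes that set WT TAC replicate 5 with the KO libraries were all called lower in KO TAC, and 16 of them are among the 58. They were picked for higher values in WT TAC replicates 1 to 4, so their lower KO mean follows from the choice. With the same gap of 0.5, 0 genes were lower in WT TAC replicates 1 to 4. By that gap, 11 genes had all WT TAC libraries above all KO TAC libraries and 10 had them below. Chosen after their values were seen, Ndufb4c was at 38.8, 38.7, 35.9, 38.4 and 7.02 FPKM in WT TAC and at 4.47 to 8.08 in KO TAC, and Rps10 at 50.4 to 59.0 in WT TAC replicates 1 to 4, 30.1 in replicate 5 and 25.7 to 31.7 in KO TAC. Among the TAC libraries, WT TAC replicate 5 lay with the KO libraries in these genes. The difference after TAC thus went with this library set and not the labelled genotype. Sbk2 is not among the 16, and its genotype difference after TAC differed from that in sham (interaction -1.33, limma adjusted p = 0.0212). What the set stands for was not tested. For genes outside the 19, genotype and set are told apart only through WT TAC replicate 5, the only WT library of its set. With the set as a term 29 genes were called in all.

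**Figure D4:**
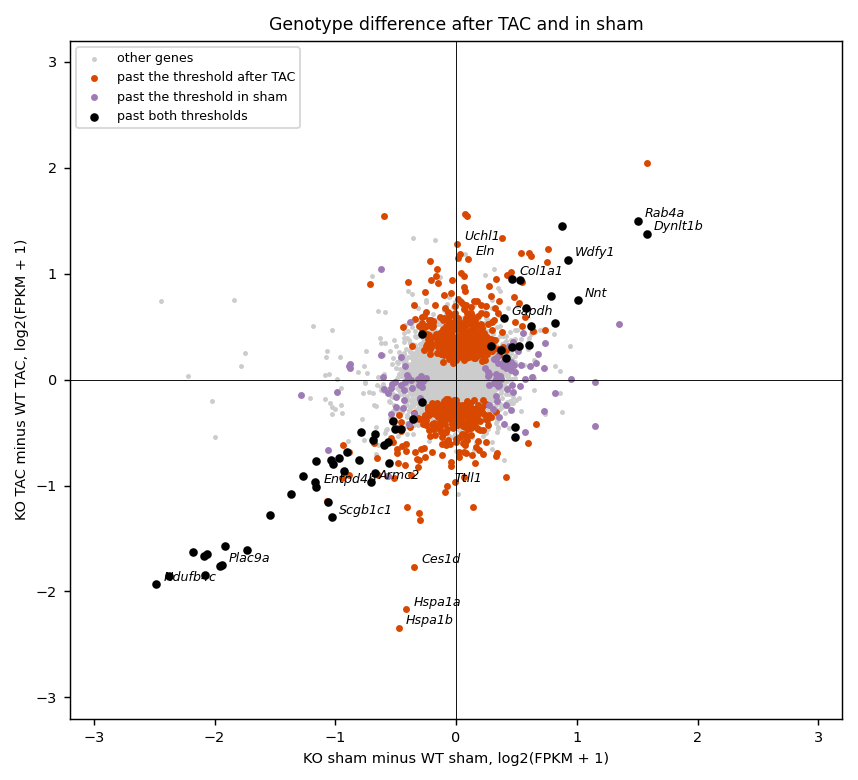
Log2 difference between genotypes in sham hearts (horizontal axis) and after TAC (vertical axis) for the 11204 genes tested in both, 1 point a gene; black points passed the limma threshold in both. Plac9a, Rab4a, Dynlt1b and Nnt lie near the diagonal, whereas Hspa1a, Ces1d, Eln and Uchl1 lie nearer the vertical axis. Of the latter genes, only Uchl1 passed the interaction test.

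Whether the genotype difference after TAC differed from that in sham was tested directly over 17 libraries, and 111 of 11937 genes passed (0.930%), 45 with a more positive and 66 with a more negative difference after TAC. Vgll2, a cofactor of TEAD transcription factors in muscle that reached 1 FPKM in KO TAC alone, was at 0.541, 0.159, 0.362, 0.418 and 0.245 FPKM in WT TAC and at 2.71, 1.997, 3.57, 1.74 and 2.08 in KO TAC (1.33 ± 0.14 SE, limma adjusted p = 0.000356). In sham it was at most 0.181 in WT and 0.121 in KO, and the interaction was 1.34 ± 0.19 (SE, limma adjusted p = 0.0096). Edn3, which encodes the peptide endothelin 3, was at 2.68, 2.34, 2.91, 2.36 and 2.45 in WT TAC and at 9.41, 4.72, 12.3, 6.61 and 10.5 in KO TAC, and at most 0.896 in any sham library of the fit (interaction 1.43 ± 0.29 SE, limma adjusted p = 0.034). In both genes no KO TAC value reached down to the WT TAC range. Akip1, a binding partner of protein kinase A, rose by 0.59 after TAC (interaction 0.87 ± 0.13 SE, limma adjusted p = 0.0124).

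Cpxm2, a carboxypeptidase-like secreted protein, passed the interaction test through sham. It was 11.5 to 16.1 FPKM in WT sham and 4.82 to 5.35 in KO sham, but 26.3 ± 3.70 in WT TAC and 23.6 ± 3.27 in KO TAC (mean ± SD, n = 5; interaction 1.13 ± 0.16 SE, limma adjusted p = 0.0096). On the other side, Rpl3l, the muscle form of ribosomal protein L3, was at 116.5, 134.6, 120.2, 137.5 and 145 FPKM in WT TAC and at 68.7, 90.9, 65.4, 82.9 and 91.7 in KO TAC. No KO value reached the WT range (-0.71 ± 0.10 SE, limma adjusted p = 0.00372, interaction -0.84 ± 0.14 SE, limma adjusted p = 0.0202). Ttll1, a tubulin glutamylase, was at 21.3, 26.0, 20.3, 27.1 and 29.0 in WT TAC and at 11.0, 15.0, 10.6, 11.5 and 11.1 in KO TAC, with 35.6 to 44.9 and 35.2 to 44.1 in WT and KO sham. Hsdl2, a peroxisomal protein, Agpat3, an acyltransferase, Idh3a and Acsl1 had interactions of -0.61, -0.48, -0.43 and -0.56. In these 4 the KO sham libraries were on average above the WT sham libraries and the KO TAC libraries below the WT TAC libraries. The count of 111 rested on single libraries. It was 7 without KO sham replicate 1, 10 without WT sham replicate 3, 17 without WT TAC replicate 5 and 597 without KO TAC replicate 2. It was 23 to 58 without any other sham library, WT TAC replicate 2 or 4, or KO TAC replicate 1, 3 or 4, and 171 without KO TAC replicate 5.

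Among the remaining genes picked by size of change, Lcn2, the iron-siderophore binding protein lipocalin 2, rose by 1.23 and Xlr, an X-linked gene, by 1.17, with all KO TAC libraries above all WT TAC libraries. Cks2, a cyclin-dependent kinase subunit, rose by 1.16. The metallothionein genes Mt2 (1.02) and Mt1 (0.51) and the secreted peroxidase Gpx3 (0.76) rose, as 3 of 16 tested genes of NRF2 targets and metallothioneins, while 0 fell. Mt2 was at 108, 143.5, 119, 85.0 and 65.6 FPKM in WT TAC and at 169, 152, 226, 203 and 307 in KO TAC, with no overlap. Single calls came from Cx3cl1 (0.48) among 20 cytokines and chemokines, Oasl2 (0.49) among 30 interferon-stimulated and MHC genes, Aldh1a2 (0.60) among 3 tested epicardial markers (14 listed) and Ncam1 (0.75) among 3 tested nerve markers (14 listed). Ncam1 reached 1 FPKM in KO TAC alone, so its entry into the test depended on the group in which it was high. Dbt (-0.37) was the single call among 21 genes of branched-chain amino acid and ketone breakdown. With 4.11% higher and 2.90% lower over all genes, single calls are not read as changes of their lists.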

How the data were processed

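Heart RNA was sequenced in 18 libraries, per the labels' protocols after RNeasy extraction and with a SMARTER mRNA-Seq kit. The authors deposited 1 table of 34714 genes, whose values were taken to be FPKM: the table's label does not name the unit, and the unit was inferred from the values. The build is mm10, per the submitters' processing notes. The sources used here name no aligner, counter or strand setting, so reads of near-identical copies and of overlapping genes cannot be assigned with certainty.

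Testing covered genes that reached 1 FPKM in 3 or more of the 10 TAC libraries, with limma 3.58.1 (R 4.3.3, trend and robust moderation) on log2(FPKM + 1), with Benjamini-Hochberg adjustment and a threshold of 0.05. The sham fit used 7 sham libraries, and the interaction fit 17 libraries with a mean for each of 4 groups. KO sham replicate 2 entered neither. Exact permutation tests went through the 252 assignments of the TAC libraries, with Python 3.11.15 and numpy 2.4.6. The fits were tested on simulated data.

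The members, 38 gene lists and tests were chosen with earlier results of these data known. Named genes were a fixed set, up to 12 rises and 12 falls without overlap between the groups, up to 3 called members of each list, and 3 genes a direction from the interaction. Other called members are named for their role. Alternatives were other sets of libraries, a replicate block, another pseudocount, no filter, median-ratio scaling, a size threshold, plain moderation, a library-set term and each library left out.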

Additional observations from a re-analysis of the deposited data

Results flagged for a closer look

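In 10 of 238 checks of a named gene in a TAC group, 1 of the 5 libraries stood far from the other 4 by Dixon's criterion, which chance meets in about 1 check in 20. In WT TAC, Kcp was highest in replicate 3 at 1.483 FPKM (the others 0.9853 to 1.068) and Cdkn1a in replicate 2 at 59.69 (23.3 to 28.54). WT TAC replicate 2 was lowest for Ube2c at 1.267 (2.533 to 3.232) and for Plvap at 1.355 (3.345 to 3.967), and replicate 3 was lowest for Entpd4b at 29.18 (36.71 to 38.69). In KO TAC, replicate 2 stood on the side of the WT libraries in 4 genes. It was highest for Ttll1 at 15.01 (10.58 to 11.47), Kcnd2 at 3.371 (1.222 to 1.528) and Acsl1 at 219.9 (167.9 to 181.0), and lowest for P4hb at 81.72 (96.91 to 101.9). KO TAC replicate 4 was lowest for Manf at 24.06 (27.33 to 28.52).

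The genotype difference after TAC differed from that in sham in 15 named genes, by the limma interaction term. The term was positive for Edn3 (1.43), Vgll2 (1.34), Uchl1 (1.27), Cpxm2 (1.13), Akip1 (0.87), P3h2 (0.58) and P4hb (0.46). It was negative for Sbk2 (-1.33), Stard10 (-1.05), Ttll1 (-0.93), Rpl3l (-0.84), Hsdl2 (-0.61), Acsl1 (-0.56), Agpat3 (-0.48) and Idh3a (-0.43).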

How the results depend on the processing

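The count of 814 genes (477 higher, 337 lower) was 1350 (779 and 571) in a model of 4 groups over 17 libraries and 1451 (840 and 611) over 18. It was 344 (178 and 166) with no filter on low values, 56 (30 and 26) with a log2 difference of at least 1 as well, and 29 (16 and 13) with a term for the library set, which leaves WT TAC replicate 5 as the only WT library. The cause of the other changes was not tested. With a single library left out, it ran from 249 to 1385, from 133 to 750 higher and from 116 to 635 lower. The interaction count of 111 was 300 with all 18 libraries, 16 with no filter and 199 after median-ratio scaling. It was 14 with a size of at least 1, 460 without WT TAC replicate 5 and KO TAC replicate 2, and 7 to 597 with a single library left out. With the library-set term it was 17, as it was without WT TAC replicate 5. In the interaction that term takes up WT TAC replicate 5 alone, so it is no separate check. With the replicate number as a replicate block, 555 genes were called after TAC (341 higher, 214 lower) and 345 in the interaction. The deviations of same-numbered TAC libraries correlated at 0.142, -0.238, 0.0248, 0.000716 and -0.0725. Only for KO TAC replicate 1 was the WT library of the same number the best match. So few values cannot exclude a pairing by number.

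Among 118 tested genes named by the rule 92 were called, and 49 of these were called in every fit that left out a single TAC library. Of 2355 values compared, 1798 kept their direction and side of the threshold, 498 fell below it, 45 passed it and 14 changed sign, all 14 in genes that were not called. Trp53 was -0.01 after median-ratio scaling, -0.01 without WT TAC replicate 5 and KO TAC replicate 2, and -0.02 to 0.07 with a single library left out. Acta1 was 0.88 with the library-set term and -0.41 to 0.05 with a single library left out. S100a8 was -0.05 without WT TAC replicate 5 and KO TAC replicate 2, and -0.08 to 0.37 with a single library left out. The unknown depth limits what can be said of genes below 1 FPKM.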

Other observations

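A further 3 genes outside the naming rule, chosen after their values were seen, had large differences in KO TAC. Sprr1a, a small proline-rich protein of stressed cardiomyocytes, was at 0.406 to 3.48 FPKM in WT TAC and 3.22 to 43.5 in KO TAC (log2 2.46, limma adjusted p = 0.0166), the most positive difference among the called genes. Serpina3n, a secreted protease inhibitor, rose by 1.54 on the log2 scale (limma adjusted p = 0.0249). Penk, which encodes the precursor of enkephalins, fell by 1.32 on the log2 scale (limma adjusted p = 0.0164). The ranges of all 3 genes overlapped between the groups, in each through KO TAC replicate 2. Serpina3n was at 5.95 to 21.4 FPKM in WT TAC and 18.3 to 59.7 in KO TAC. Penk was at 1.84 to 4.84 in WT TAC and 0 to 1.96 in KO TAC.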
